A study of Mus musculus with 15 samples.

Results

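Pmp22, Pald1 and 8 further genes, Rcan1, Tmem154, Fam20c, Kif3c, Zfp503, Tbc1d2, Asb10 and Nectin3, were described across the libraries of a silica nanoparticle study. They were picked because they ranked high in at least 2 of the 4 comparisons of treated with nontreated cells. The measure and the threshold of that ranking were not stated, and ranks given below are by p. These 10 genes were taken from 57186 listed genes, of which 19839 had at least 10 counts summed over all libraries and were tested, the 10 among them. Since the ranks against the controls chose them, their differences from the controls are given below as a description, with standard errors and without a test.

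Poly(A) RNA of RAW 264.7 cells, an established mouse macrophage line transformed by a virus, was sequenced in 15 libraries of 5 groups with 3 libraries each. Control cells received no particles. All cells were kept for 6 h, the treated ones with silica: SNP100 (nonporous, nominally 100 nm) at 50 µg/mL, SNP50 (nonporous, 50 nm) at 25 µg/mL, MSNP (mesoporous, 100 nm) at 200 µg/mL and HMSNP (hollow mesoporous, 100 nm) at 200 µg/mL. The doses were the highest nontoxic ones for each particle, so dose and particle differ together everywhere but between MSNP and HMSNP. No gene was altered in any group. In the labels, the library names of each group start with a number of their own. What that number stands for is not said, and it cannot be told apart from treatment. The labels do not say whether the 3 libraries of a group came from separate cultures, so every p below measures only the spread between these libraries, which may be technical.

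As background, macrophages engulf particles into vesicles that mature through Rab-controlled steps into lysosomes, and solid particles that stay in lysosomes can damage the lysosomal membrane. The 10 genes belong to no single pathway. 3 roles recur among them: proteins of the cell membrane (Pmp22, Tmem154 and Nectin3), regulators that set the phosphorylation of proteins or lipids (Rcan1, Pald1 and Fam20c), and proteins of vesicle and cargo traffic (Tbc1d2 and Kif3c). Zfp503 is a nuclear repressor and Asb10 the substrate-binding part of a ubiquitin ligase.

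Total counts ran from 29369934 to 42617812 per library. Levels are given as CPM, the count divided by the library total in units of 1e+06 after scaling of the totals by trimmed means of M-values (TMM). Macrophage markers fitted the labelled cell type: 10 of 10 passed 3 counts in at least 1 library, and only Mrc1 lay below 1 CPM on average in the controls. Their summed level was 13700 to 14670 CPM under MSNP and 16020 to 20970 CPM in the other libraries. Most of it was Lyz2, which averaged 12180 CPM in the controls and 9308 CPM under MSNP. Cd68 (957 and 1536 CPM), Mrc1 (0.46 and 1.79 CPM) and Adgre1 (134 and 137 CPM) averaged higher under MSNP than in the controls. The other macrophage markers averaged lower there, among them Csf1r (2798 and 1789 CPM) and Cd14 (975 and 567 CPM). Of markers of Schwann cells, the cell type best known for Pmp22, Mbp and Cnp averaged 166.9 and 14.5 CPM in the controls, Prx lay below 1 CPM on average there, and Sox10 had at most 3 counts in any library. Fibroblast, epithelial, T cell and B cell markers summed to under 1 CPM in each library. Endothelial markers summed to 8.36 to 10.3 CPM under MSNP and to 2.63 to 5.75 CPM elsewhere. That sum was mostly 1 gene, Vwf, which averaged 3.83 CPM in the controls and 9.31 CPM under MSNP. Pecam1, Cdh5, Kdr and Tek averaged 0.32 CPM or less in each group, and Pecam1 and Cdh5 were lower under MSNP than in the controls. The part of these genes in the results was not tested. In bulk RNA, a change in the number of cells and a change in RNA per cell cannot be told apart. Control replicate 3 stood apart: its level against the other controls fell with gene length, with a median log2 difference of 0.70 for genes of the shortest of 10 length bins (median 878 bases) and -0.87 for the longest (8443 bases). Differences from the controls are therefore also given without it where it matters.

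Pmp22 (ENSMUSG00000018217, chr11:63019718-63050600 on GRCm39, plus strand) encodes a small tetraspan glycoprotein that is best known from compact myelin. It stood at 34.1, 33.8 and 39.8 CPM in the controls and at 299, 290 and 286 CPM under MSNP. SNP100 gave 59.1, 61.3 and 60.3 CPM, SNP50 gave 59.0, 56.9 and 54.9 CPM and HMSNP gave 67.2, 64.8 and 59.8 CPM. Every treated library was above every control library, the 3 lower treated groups lay close together, and MSNP was far above them. On the log2 scale the differences from the controls were 0.75 ± 0.07 (SE) for SNP100, 0.67 ± 0.07 for SNP50, 3.02 ± 0.08 for MSNP and 0.83 ± 0.07 for HMSNP, a factor of 8.12 under MSNP. By p the gene ranked 2, 8, 3 and 38 of all tested genes in that order of groups.

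Tmem154 (ENSMUSG00000056498, chr3:84573499-84611884, plus strand), a single-pass membrane protein whose function is little known, had the other increase of this size. Its levels were 9.56, 10.3 and 8.80 CPM in the controls and 76.9, 76.5 and 78.2 CPM under MSNP. They were 13.8, 14.9 and 13.8 CPM under SNP100, 13.5, 13.7 and 13.5 CPM under SNP50 and 13.9, 13.9 and 12.8 CPM under HMSNP. The groups did not overlap with the controls, and the 3 lower treated groups lay between 12.8 and 14.9 CPM. Log2 differences were 0.57 ± 0.07, 0.51 ± 0.07, 3.01 ± 0.07 and 0.50 ± 0.07 for SNP100, SNP50, MSNP and HMSNP. Pmp22 and Tmem154 thus had nearly equal differences from the controls under MSNP at control levels that differed several-fold.

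The windows around the annotated starts of these 2 genes are shown because they carried the largest increases. Each runs from 250 bases before to 50 bases after the start of the Ensembl canonical transcript on GRCm39, in the direction of the gene. The Pmp22 window is chr11:63021367-63021666 (plus strand) and the Tmem154 window is chr3:84573249-84573548 (plus strand). Capitals mark matches to 5 letter patterns searched on both strands: an E-box (CACGTG), AP-1 (TGANTCA), CRE (TGACGTCA), an NFAT core (GGAAAA) and an ATF4 element (TGATGNAA).
Pmp22: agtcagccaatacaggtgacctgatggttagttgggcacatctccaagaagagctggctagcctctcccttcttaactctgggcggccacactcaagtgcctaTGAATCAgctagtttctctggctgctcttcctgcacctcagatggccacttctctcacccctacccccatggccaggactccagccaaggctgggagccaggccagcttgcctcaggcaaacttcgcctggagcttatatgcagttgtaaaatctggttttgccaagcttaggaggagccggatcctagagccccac
Tmem154: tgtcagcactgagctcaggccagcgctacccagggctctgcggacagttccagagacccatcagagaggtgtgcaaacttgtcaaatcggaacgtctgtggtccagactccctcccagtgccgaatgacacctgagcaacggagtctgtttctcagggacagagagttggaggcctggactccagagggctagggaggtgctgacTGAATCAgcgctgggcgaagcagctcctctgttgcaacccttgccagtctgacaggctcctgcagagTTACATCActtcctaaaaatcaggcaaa
Both windows hold the AP-1 letters TGAATCA, at position -147 from the start in Pmp22 and at -45 in Tmem154, and Tmem154 also holds the ATF4 element, read on the other strand as TTACATCA, at 22 after the start. Among windows of the same length at 13135 protein-coding genes tested, 5.4% hold the AP-1 letters and 2.57% the ATF4 element. Of the 10 genes, 3 hold AP-1 (Pmp22, Tmem154 and Rcan1), 2 the E-box (Fam20c and Zfp503), 4 the NFAT core (Pald1, Rcan1, Tbc1d2 and Nectin3), 1 the CRE (Rcan1) and 1 the ATF4 element. The shares of all windows were 9.84% for the E-box, 23.2% for the NFAT core and 3.16% for the CRE. A match is a description of letters and not of binding. Pmp22 has further annotated protein-coding starts, among them 63019718 and 63023851 on chr11, whose windows are not shown. The deposited counts are sums per gene, so they do not say which Pmp22 start was used.

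Nectin3 (ENSMUSG00000022656, chr16:46208069-46318888, minus strand) encodes an immunoglobulin-like adhesion molecule that binds nectin 1 and nectin 2 on neighbouring cells. It was lower in all treated groups. The controls stood at 106, 116 and 100 CPM and MSNP at 25.1, 25.0 and 24.0 CPM. SNP100 gave 81.7, 77.7 and 76.3 CPM, SNP50 gave 67.3, 72.5 and 74.2 CPM and HMSNP gave 83.3, 90.9 and 82.1 CPM. No treated library reached a control library, and MSNP was separate from the other treated groups. Log2 differences from the controls were -0.45 ± 0.07 for SNP100, -0.59 ± 0.07 for SNP50, -2.12 ± 0.07 for MSNP and -0.33 ± 0.07 for HMSNP. Its canonical transcript, 9298 bases, is the longest of the 10. With an offset that removed the length trend of each library the HMSNP difference was -0.74, and with the offset and without Control replicate 3 it was -0.45, while the MSNP difference was -2.41 and -2.13.

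Rcan1 (ENSMUSG00000022951, chr16:92188840-92267755, minus strand) encodes a protein that binds and inhibits calcineurin, the calcium-dependent phosphatase that lets NFAT factors enter the nucleus. It was among the most abundant of the 10 in the controls and the lowest levels were again under MSNP. The controls stood at 191, 189 and 211 CPM, MSNP at 48.8, 47.6 and 47.9 CPM. SNP100 gave 126, 124 and 142 CPM, SNP50 gave 122, 123 and 131 CPM and HMSNP gave 150, 157 and 142 CPM. All 12 treated libraries were below all controls. Log2 differences were -0.59 ± 0.07, -0.65 ± 0.07, -2.03 ± 0.07 and -0.40 ± 0.07 for SNP100, SNP50, MSNP and HMSNP, so for Rcan1 the HMSNP difference was the smallest, whereas for Pmp22 and Pald1 it was the second in size.

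Rcan1 is transcribed from several starts, and the internal one is known to answer to calcineurin and NFAT. Its windows are shown for that reason: the canonical, internal start (chr16:92196916-92197215, minus strand) and an upstream start (chr16:92263113-92263412, minus strand), with capitals as above.
Rcan1 internal start: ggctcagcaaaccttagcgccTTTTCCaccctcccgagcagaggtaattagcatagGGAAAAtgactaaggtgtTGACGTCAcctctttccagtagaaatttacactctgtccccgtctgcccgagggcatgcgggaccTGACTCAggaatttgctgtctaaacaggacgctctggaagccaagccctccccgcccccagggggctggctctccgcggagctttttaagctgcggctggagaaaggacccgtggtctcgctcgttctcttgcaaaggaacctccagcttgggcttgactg
Rcan1 upstream start: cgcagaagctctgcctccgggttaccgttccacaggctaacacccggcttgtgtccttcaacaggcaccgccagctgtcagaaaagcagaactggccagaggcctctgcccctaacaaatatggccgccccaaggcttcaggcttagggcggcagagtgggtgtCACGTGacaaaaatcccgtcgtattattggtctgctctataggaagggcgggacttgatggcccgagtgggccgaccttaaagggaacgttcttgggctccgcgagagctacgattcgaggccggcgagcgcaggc
The internal window holds 2 NFAT cores, at -229 and -194, the CRE at -176 and the AP-1 letters TGACTCA at -111. The upstream window holds an E-box at -86 and none of the other 4 patterns. The deposited counts are sums per gene, so they do not say which start the transcripts came from.

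Pald1 (ENSMUSG00000020092, chr10:61155435-61219545, minus strand) encodes paladin, a protein with phosphatase domains that acts on phosphoinositides and has been tied to endosomal traffic of a growth factor receptor. Its control libraries were the tightest of the 10, at 107, 109 and 108 CPM, and its MSNP libraries stood at 21.7, 21.6 and 21.6 CPM. SNP100 gave 83.5, 79.7 and 75.8 CPM, SNP50 gave 81.4, 82.4 and 83.3 CPM and HMSNP gave 66.1, 73.2 and 69.2 CPM. The controls lay above all treated libraries, and HMSNP lay between the nonporous particles and MSNP without overlap. Log2 differences were -0.44 ± 0.06, -0.39 ± 0.06, -2.32 ± 0.06 and -0.64 ± 0.06 for SNP100, SNP50, MSNP and HMSNP, a factor of 5.0 lower under MSNP. Without Control replicate 3 they were -0.45, -0.40, -2.31 and -0.64.

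Fam20c (ENSMUSG00000025854, chr5:138740173-138795832, plus strand) encodes the Golgi kinase that phosphorylates many secreted proteins, osteopontin among them. It had the highest CPM of the 10 in the controls, at 208, 224 and 192 CPM. The treated levels were 291, 292 and 292 CPM under SNP100, 280, 291 and 275 CPM under SNP50, 490, 483 and 481 CPM under MSNP and 312, 321 and 298 CPM under HMSNP. Every treated library exceeded the controls, and the 3 SNP100 libraries were nearly equal. Log2 differences were 0.49 ± 0.06, 0.44 ± 0.06, 1.22 ± 0.06 and 0.58 ± 0.06 for SNP100, SNP50, MSNP and HMSNP. Its range between the smallest and the largest difference was narrower than for the other genes that were higher.

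Tbc1d2 (ENSMUSG00000039813, chr4:46604388-46650527, minus strand) encodes Armus, which switches off Rab7, the small GTPase of late endosomes and autophagosomes. Its levels were 19.6, 22.6 and 14.4 CPM in the controls, 37.9, 41.3 and 37.3 CPM under SNP100, 35.1, 36.7 and 33.7 CPM under SNP50 and 111, 112 and 107 CPM under MSNP. HMSNP gave 24.8, 22.3 and 22.7 CPM, and 1 of those libraries fell below the highest control. The SNP100, SNP50 and MSNP libraries were clear of the controls. Log2 differences were 1.04 ± 0.12, 0.90 ± 0.12, 2.54 ± 0.12 and 0.30 ± 0.12 for SNP100, SNP50, MSNP and HMSNP. Control replicate 3, the lowest control, bore on them: without it they were 0.88, 0.73, 2.39 and 0.14, and without Control replicate 2 the HMSNP value was 0.47.

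Kif3c (ENSMUSG00000020668, chr12:3400262-3456494, plus strand) encodes a kinesin-2 motor subunit that pairs with Kif3b to carry cargo along microtubules. It was the exception to the order of the groups, since MSNP was not set apart from the nonporous particles. The controls stood at 56.8, 58.9 and 51.5 CPM, SNP100 at 38.8, 40.7 and 39.8 CPM, SNP50 at 37.1, 37.6 and 36.1 CPM and MSNP at 38.4, 38.6 and 40.5 CPM. HMSNP gave 46.4, 52.0 and 50.1 CPM, and 1 of its libraries overlapped with the lowest control. The nonporous particles and MSNP were at one level. Log2 differences were -0.49 ± 0.07 for SNP100, -0.59 ± 0.07 for SNP50, -0.51 ± 0.07 for MSNP and -0.17 ± 0.07 for HMSNP. With the length offset the values were -0.66 for SNP100, -0.68 for SNP50, -0.73 for MSNP and -0.44 for HMSNP. With the offset and without Control replicate 3 they were -0.49, -0.51, -0.57 and -0.28 in the same order. Exons of Kif3c share 2617 bases with the antisense gene 1110002L01Rik and 588 with Gm48512, and the strand setting of the counting is not given in the sources used here, so its level is uncertain to that extent.

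Zfp503 (ENSMUSG00000039081, chr14:22033983-22039669, minus strand) encodes a zinc finger repressor of transcription, and Asb10 (ENSMUSG00000038204, chr5:24737662-24746006, minus strand) an ankyrin repeat protein with a SOCS box that joins substrates to cullin 5 ubiquitin ligases. They were the least abundant of the 10. Zfp503 stood at 6.58, 5.73 and 5.52 CPM in the controls, 10.3, 10.0 and 10.7 CPM under SNP100, 9.99, 11.4 and 9.02 CPM under SNP50, 27.6, 26.6 and 26.0 CPM under MSNP and 7.17, 6.95 and 7.08 CPM under HMSNP. Asb10 stood at 2.77, 2.66 and 2.55 CPM, 6.06, 5.28 and 4.21 CPM, 6.72, 5.58 and 4.70 CPM, 17.8, 18.7 and 18.4 CPM and 3.03, 2.71 and 2.64 CPM in the same order of groups. In both, SNP100, SNP50 and MSNP were clear of the controls. HMSNP was just above the controls for Zfp503 and overlapped with them for Asb10. Log2 differences of Zfp503 were 0.80 ± 0.09, 0.77 ± 0.09, 2.17 ± 0.09 and 0.25 ± 0.09 for SNP100, SNP50, MSNP and HMSNP. Those of Asb10 were 0.96 ± 0.14, 1.09 ± 0.15, 2.78 ± 0.14 and 0.07 ± 0.15. The counts behind Asb10 were small, 91 to 98 per control library, and its SNP100 and SNP50 libraries were spread the most of the 10 genes.

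**Figure D1:**
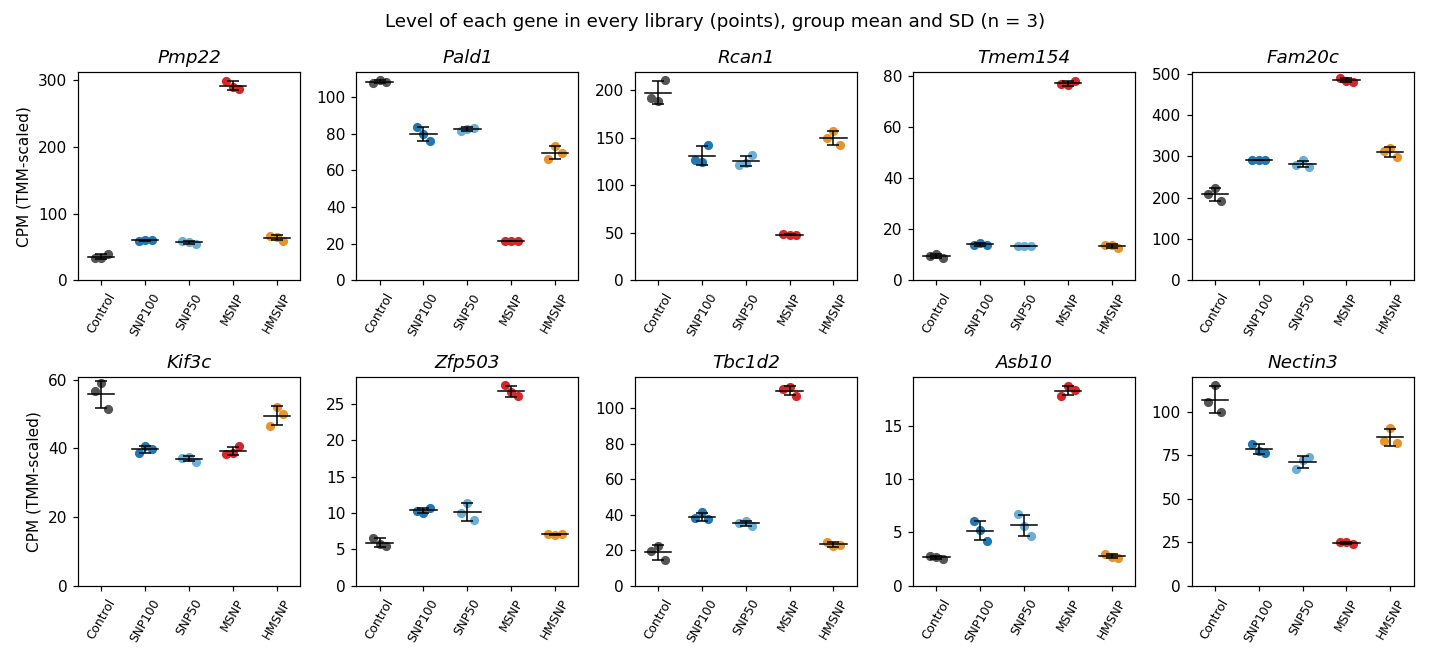
Level of each of the 10 genes in each of the 15 libraries, one panel per gene, in TMM-scaled CPM on a linear axis from 0. Points are libraries, lines are the group mean and SD (n = 3). MSNP is the extreme group in 9 panels, and Kif3c is level across SNP100, SNP50 and MSNP.

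Across the groups, 6 genes were higher and 4 lower in SNP100, SNP50 and MSNP. The 3 libraries of the treated group lay clear of all 3 controls for 10 of 10 genes with SNP100, SNP50 and MSNP and for 7 of 10 with HMSNP, where Kif3c, Tbc1d2 and Asb10 overlapped. Over all tested genes that share was 12.5% for SNP100, 14.1% for SNP50, 33.2% for MSNP and 22.9% for HMSNP, and since these comparisons chose the genes, nothing is read from the contrast. By the edgeR quasi-likelihood test, the 10 were past an adjusted p of 0.05 in SNP100 (0.912% of all tested genes), SNP50 (1.41%) and MSNP (22.8%), and 6 of 10 were in HMSNP (5.16%), again as a description of the choice. Fits of only the 6 libraries of each comparison estimate the spread from those libraries alone. In them no gene of the 10 passed with SNP100 or SNP50, all 10 did with MSNP, and 2 did with HMSNP (Pmp22 and Pald1). The shares of all tested genes called in those fits are not given here, so nothing about the 10 is read from these counts. The median log2 difference of the 10 from the controls was 0.53 with SNP100, 0.47 with SNP50, 1.70 with MSNP and 0.16 with HMSNP, beside -0.02, 0.00, -0.05 and -0.04 over all tested genes. These medians mix both directions. The 4 comparisons share the same 3 controls, so their values for a gene are not independent of each other.

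By these values the genes fell into 3 forms. Pmp22, Tmem154 and Fam20c were higher and Pald1, Rcan1 and Nectin3 lower in all 4 treated groups. Zfp503, Tbc1d2 and Asb10 were higher in SNP100, SNP50 and MSNP, with HMSNP values of 0.07 to 0.30 on the log2 scale. Kif3c was lower by -0.49 to -0.59 in those groups and by -0.17 in HMSNP. MSNP lay farthest from the controls for 9 of the 10, and for 49.8% of 11540 genes with a mean of at least 1 CPM. The exception was Kif3c, where SNP50 was farthest, with MSNP differing from it by 0.08 (95% interval -0.06 to 0.23). With the length offset MSNP was farthest for Kif3c too, but its difference from SNP50, -0.0506, did not pass the edgeR test (adjusted p = 0.76). Ranks by p fell off in HMSNP, from 38 for Pmp22 and 44 for Pald1 to 16145 for Asb10. Taking the 2 best ranks of each gene, the later of them ran from 3 for Pmp22 to 42 for Asb10, which ranked 23 in SNP50 and 126 in MSNP.

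**Figure D2:**
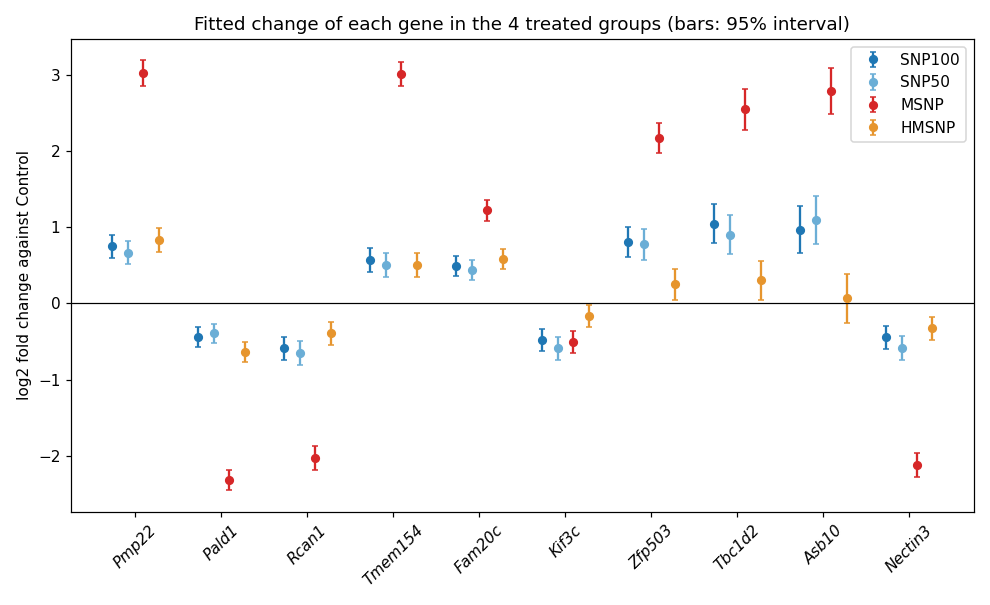
Log2 fold change of each of the 10 genes against the controls in the 4 treated groups, with bars for the 95% interval of the fit. MSNP points are farthest from 0 for all but Kif3c, and the HMSNP points of Zfp503, Tbc1d2 and Asb10 lie at 0.07 to 0.30.

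Comparisons among treated groups were not ranked to choose the genes, but they rest on the same treated libraries. Genes chosen for large differences from the controls in 1 treated group tend to differ from milder groups too. The tests below therefore describe each gene, and nothing is read from the counts of the 10 beside the shares of all tested genes. MSNP and HMSNP were given at the same dose. All 10 genes differed between them by the edgeR quasi-likelihood test with Benjamini-Hochberg adjustment over all tested genes, 4 higher and 6 lower in HMSNP, where 20.2% of all tested genes differed, 9.22% higher and 11% lower. Pmp22 was -2.19 ± 0.07 (log2, SE) lower in HMSNP than in MSNP (adjusted p = 4.7e-11), Tmem154 -2.51 ± 0.07 (1.1e-11), Tbc1d2 -2.24 ± 0.12 (3.2e-09) and Asb10 -2.72 ± 0.14 (1.8e-09). Zfp503 differed by -1.92 ± 0.09 and Fam20c by -0.64 ± 0.06. In the other direction Nectin3 was 1.79 ± 0.07 higher (adjusted p = 2.0e-10), Pald1 1.68 ± 0.06 (7.4e-11), Rcan1 1.64 ± 0.07 (4.1e-10) and Kif3c 0.34 ± 0.07 (0.0019). In each of the 10 genes the 3 HMSNP libraries were all on one side of the 3 MSNP libraries, as 45.3% of tested genes were.

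MSNP differed from SNP100 in 9 of 10 genes (17.9% of all tested genes, 10.4% higher and 7.53% lower) and from SNP50 in the same 9 (24% of all tested genes, 13.1% higher and 10.9% lower), 6 higher and 3 lower each time, at doses that differ. Against SNP100 the fold changes were 2.44 ± 0.07 for Tmem154 (adjusted p = 1.9e-11), 2.28 ± 0.07 for Pmp22 (4.8e-11) and -1.88 ± 0.06 for Pald1 (4.8e-11), down to 0.73 ± 0.06 for Fam20c. Kif3c was the one that did not pass: it differed by -0.02 from SNP100 (95% interval -0.17 to 0.12, adjusted p = 0.89) and by 0.08 from SNP50 (-0.06 to 0.23, adjusted p = 0.41).

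Between SNP50 at 25 µg/mL and SNP100 at 50 µg/mL, none of the 10 passed the edgeR test. The unadjusted p was under 0.05 for 0 of 10, and by DESeq2 0 of 10 passed. Among all tested genes edgeR called 0% too, DESeq2 called 1, and 867 were at an unadjusted p under 0.05. The 95% intervals of the 10 differences lay within -0.39 (Tbc1d2) and 0.42 (Asb10) on the log2 scale, which is the range of differences these libraries leave possible. Particle diameter and dose changed together in this comparison.

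HMSNP against the nonporous particles split the genes. Against SNP100, 4 of 10 passed (4.52% of all tested genes, 2.32% higher and 2.2% lower): Zfp503 by -0.55 ± 0.09 (adjusted p = 0.0023), Tbc1d2 by -0.74 ± 0.12 (0.0018) and Asb10 by -0.90 ± 0.14 (0.0016) were lower in HMSNP, and Kif3c by 0.32 ± 0.07 (0.013) was higher. The call of Kif3c was lost when SNP100 replicate 1 or 3 or HMSNP replicate 2 or 3 was left out, at 0.28 to 0.32, and under the length offset at 0.21. Against SNP50 it was 0.42 ± 0.07 (adjusted p = 0.0015), and 0.23 and not called under that offset. Pmp22 differed by 0.09 (95% interval -0.07 to 0.24), Tmem154 by -0.07 (-0.22 to 0.08) and Fam20c by 0.09 (-0.04 to 0.22), none of which passed. Against SNP50, 7 of 10 passed (8.87% of all tested genes, 4.65% higher and 4.22% lower), namely the same 4 with Pald1 (-0.24 ± 0.06, adjusted p = 0.020), Rcan1 (0.26 ± 0.07, 0.037) and Nectin3 (0.26 ± 0.07, 0.034). Those last 3 were close to the threshold. Nectin3 lost the call without Control replicate 1 or any of the 9 SNP50, MSNP and HMSNP libraries, and under the length offset its difference was 0.03. Pald1 lost it without any SNP50 library or without HMSNP replicate 1 or 3, and Rcan1 without SNP50 replicate 1 or 2 or any HMSNP library. Tests of Zfp503, Tbc1d2 and Asb10 kept their side of the threshold in both comparisons in all fits that left out 1 library.

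**Figure D3:**
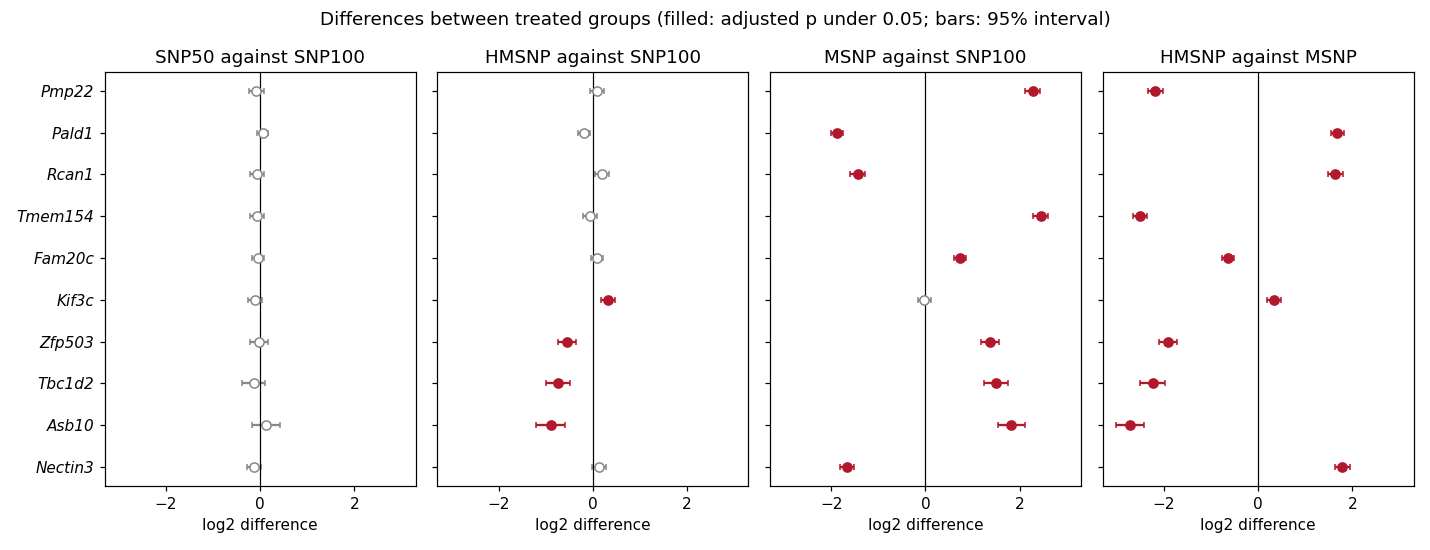
Log2 fold change of the 10 genes in 4 comparisons of treated groups, with bars for the 95% interval and filled points past an adjusted p of 0.05. HMSNP against MSNP is away from 0 for each gene, and SNP50 against SNP100 lies near 0 with intervals between -0.39 and 0.42.

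The median within-group SD of log2 CPM over the 10 genes was 0.108 in the controls, 0.034 in MSNP and 0.0765 in HMSNP. Over 11535 genes the medians were 0.256, 0.0569 and 0.0607. Of the 10, 9 lay below that median in the controls, 10 in MSNP and 2 in HMSNP. The model estimated 1 spread per gene over all 5 groups, so standard errors against the controls do not reflect the control spread alone. A choice by p would favour genes of small spread, so these values are a description. Tbc1d2 had the widest control spread of the 10, 0.334, and Pald1 the narrowest, 0.0121. Per kilobase of exon, the control level ran from 53.7 CPM per kb for Rcan1 to 0.852 for Asb10, and under MSNP Pmp22 reached 71.1 CPM per kb. Besides Kif3c, exons of Fam20c (56 bases of Gm71224 and 511 of Gm71254) and Tbc1d2 (556 bases of Gm57102 and 296 of Gm42281) overlap antisense genes.

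By likeness of log2 CPM over the 15 libraries, the genes nearest to Pmp22 among 11539 were Atf3, Por, Tmem154, Litaf and Ccrl2 (Pearson r = 0.994, 0.994, 0.990, 0.990 and 0.989). Atf3, a transcription factor of the stress response, averaged 31.2 CPM without particles, 46.3 and 47.3 with SNP100 and SNP50, 174.2 with MSNP and 56.7 with HMSNP. Por, the reductase that feeds electrons to cytochrome P450 enzymes, averaged 220.5 CPM in the controls and 613.8 in MSNP. Nearest to Pald1 were Sema4a, Bmf, Pmepa1, Pdcd4 and Pdlim7 (r = 0.996, 0.995, 0.993, 0.992 and 0.992). The 15 points share their groups, and the values describe a common order of levels.

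Close paralogs, partners and substrates of the 10 genes were taken as 9 lists, chosen by relation and not by level, with none for Tmem154. Of 86 genes listed, 70 were tested. Against the controls the edgeR test called 0 of 70 in SNP100 and 0 of 70 in SNP50, with 9 at an unadjusted p under 0.05 in each (12.9%, beside 10.5% and 12% of all tested genes) and 1 called by DESeq2 in each. Without Control replicate 3 the calls were 5 in SNP100 and 18 in SNP50. In MSNP, 18 rose and 15 fell (47.1% of the 70, beside 22.8% of all tested genes, 11.8% up and 11% down), and in HMSNP, 2 rose and 4 fell (8.57% beside 5.16%, 2.46% up and 2.7% down). The HMSNP count of 6 was 12 without Control replicate 3, 24 without Control replicate 2, and 2 or 3 without 1 of the HMSNP libraries. Shares of all tested genes called in fits without 1 library are not given here. Nothing about the partners is therefore read from such counts, the 5 in SNP100 and 18 in SNP50 included. Among genes of at least 1 CPM the shares were 48.3% of 58 beside 33.2% in MSNP and 8.62% beside 8.04% in HMSNP. The median log2 fold change of the 70 was 0.09 in MSNP and 0.06 in HMSNP, near those of all tested genes.

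Around Rcan1, 2 of 12 tested genes of the calcineurin pathway rose and 4 fell in MSNP. In HMSNP none of them passed the edgeR test, with a median log2 fold change of 0.08. Nfatc1, an NFAT factor, stood at 537.8, 585.7 and 335.5 CPM in the controls, 87.0, 91.9 and 90.4 CPM in MSNP and 436.7, 475.9 and 441.3 CPM in HMSNP. Its MSNP libraries were far below all others. The log2 fold change was -2.44 ± 0.16 in MSNP (adjusted p = 1.8e-08) and -0.11 ± 0.15 in HMSNP (adjusted p = 0.69). Nfatc2 fell by 0.82 ± 0.17 in MSNP (adjusted p = 0.0023), and Ppp3cc, a catalytic subunit of calcineurin, fell by 0.51 ± 0.06 (2.7e-05). Dyrk1a, a kinase that acts on NFAT, rose by 0.55 ± 0.15 (adjusted p = 0.018), 0.33 without Control replicate 3, and lost its call without MSNP replicate 1 or 2. Nfatc4 was at least 2.64-fold lower in MSNP, where its libraries held 0 to 2 counts, taking 3 counts per library as the floor. Rcan2 and Ppp3r2 were at 0 counts in all libraries.

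Around Fam20c, 1 of 11 tested genes rose and 5 fell in MSNP. Fam20a, a pseudokinase that activates Fam20c, held 30, 31 and 43 counts in the controls, 1, 5 and 4 in MSNP and 6, 14 and 5 in HMSNP. Its log2 fold change was -3.27 ± 0.39 in MSNP (adjusted p = 1.5e-05) and -2.15 ± 0.33 in HMSNP (0.0013), at 1.12 CPM or less in each library. Gask1b, a Golgi-associated relative, stood at 4.17, 3.96 and 3.23 CPM in the controls, 18.8, 20.1 and 19.8 CPM in MSNP and 6.61, 5.73 and 6.78 CPM in HMSNP. It rose by 2.37 ± 0.14 in MSNP (adjusted p = 5.2e-09) and by 0.75 ± 0.14 in HMSNP (0.0049), and the log2 difference of HMSNP from MSNP was -1.61 ± 0.13 (2.4e-07). Spp1, which encodes osteopontin, a substrate of Fam20c, fell by 0.33 ± 0.07 in MSNP (adjusted p = 0.0034), a direction opposite to that of Fam20c. Dipk1a fell by 0.42 ± 0.10 in MSNP (adjusted p = 0.0055), 0.27 without Control replicate 3. Dmp1 was at least 1.73-fold lower in MSNP, with 0 counts there and 3 to 8 in the controls, and Mepe was at the floor, so that its call carries no fold. Pomk rose by 0.23 ± 0.06 in HMSNP (adjusted p = 0.0498), a call that held in 2 of 15 fits without 1 library.

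The Rab7 machinery around Tbc1d2 had the largest number of calls, 7 of 13 tested genes up and 1 down in MSNP. The lists differ in size, and smaller ones had fewer calls of fewer genes, such as 1 up and 2 down of 5 around Nectin3. Over all tested genes 11.8% were up and 11% down in MSNP. Rab7b, a Rab7 relative, stood at 61.5, 72.4 and 37.6 CPM in the controls and 228.7, 207.0 and 189.3 CPM in MSNP, and rose by 1.87 ± 0.17 (adjusted p = 6.4e-07). Plekhm1, a Rab7 effector, rose by 1.07 ± 0.11 (4.1e-06), Vps39, of the HOPS tethering complex, by 0.84 ± 0.13 (0.00019), and Tbc1d15, another Rab7 GTPase activator, by 0.58 ± 0.11 (0.0011). Without Control replicate 3 the rises of Rab7b, Plekhm1, Vps39 and Tbc1d15 were 1.65, 0.92, 0.65 and 0.44. Rilp, which links Rab7 to dynein, fell by 1.08 ± 0.14 in MSNP (adjusted p = 3.4e-05) and by 0.65 ± 0.13 in HMSNP (0.011), the HMSNP call being lost without HMSNP replicate 1 or 2. In HMSNP, none of the 13 passed the edgeR test as higher, and their median log2 fold change was 0.10.

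Of the 4 kinesin-2 genes tested around Kif3c, Kif3a rose by 1.32 ± 0.07 in MSNP (adjusted p = 1.5e-09), from 18.9, 18.2 and 17.3 CPM to 45.01, 45.8 and 45.1 CPM, and was 17.2, 17.6 and 16.5 CPM in HMSNP. Kif3b rose by 0.52 ± 0.12 in MSNP (adjusted p = 0.0056), 0.35 without Control replicate 3. Both motor subunits were thus higher under MSNP where Kif3c was lower. Around Nectin3, 1 of 5 rose and 2 fell in MSNP. Nectin1, its binding partner, fell by 1.04 ± 0.06 (adjusted p = 3.4e-09), from 177.7, 184.6 and 169.0 CPM to 84.2, 86.2 and 87.0 CPM, and in HMSNP by 0.21 ± 0.06 (adjusted p = 0.0498), a call kept in 1 of 15 fits without 1 library. Nectin2 fell by 0.47 ± 0.13 (adjusted p = 0.015), a call lost without MSNP replicate 2, and Pvr, a related receptor, rose by 0.40 ± 0.07 (0.00034). Nectin4 was at the floor, and Cd226, Tigit and Cd96, receptors of lymphocytes, were at 0 counts.

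In the tetraspan family of Pmp22, Emp1 rose by 0.48 ± 0.07 (adjusted p = 5.7e-05) and Emp3 fell by 0.72 ± 0.15 (0.0023) in MSNP, the latter 0.42 without Control replicate 3. Emp2 had a log2 fold change of -0.27 ± 0.14 and did not pass, and Lim2 was at 0 counts. Around Pald1, 2 of 7 phosphoinositide phosphatases and related genes rose in MSNP, Inpp5b by 0.42 ± 0.11 (adjusted p = 0.013), 0.27 without Control replicate 3 and not called without MSNP replicate 1, and Pip4p2 by 0.21 ± 0.07 (0.032), which kept its call in 12 of 15 fits without 1 library. In the Asb family and its ligase partners, 2 of 14 rose and 2 fell in MSNP. Asb1 rose by 0.92 ± 0.12 (adjusted p = 2.6e-05) and Asb13 by 0.69 ± 0.08 (8.2e-06), and Asb3 fell by 0.54 ± 0.09 in MSNP (0.00052) and by 0.42 ± 0.09 in HMSNP (0.015). The HMSNP call of Asb3 was lost without HMSNP replicate 2 or 3. Asb2 held 2, 6 and 12 counts in the controls and 2, 0 and 1 in MSNP. It passed in MSNP (adjusted p = 0.021), but the groups overlapped and the call was lost without MSNP replicate 2 or 3, without Control replicate 3 and with only the 6 libraries of the comparison, so no fold is given. The ligase subunits Cul5, Rnf7, Elob and Eloc did not pass. Zfp703, the one close paralog of Zfp503, had log2 fold changes of 0.10, 0.09, 0.21 and 0.24 in SNP100, SNP50, MSNP and HMSNP and did not pass.

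**Figure D4:**
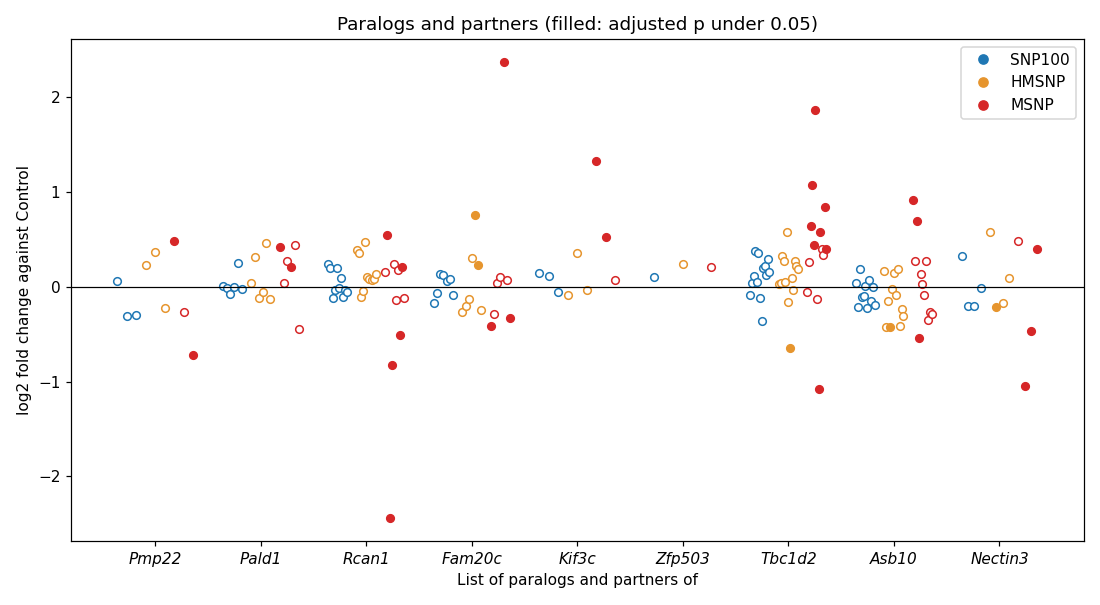
Log2 fold change against the controls of 58 paralogs and partners with a mean of at least 1 CPM, grouped by the gene they relate to, in SNP100, HMSNP and MSNP. Filled points passed an adjusted p of 0.05; no SNP100 point is filled, and most filled points are MSNP.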

How the data were processed

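RNA was extracted from RAW 264.7 cells and sequenced as directional poly(A) libraries, 3 per group. The authors deposited 1 table of whole-number counts per gene and library, not normalized. The submitters' processing notes name cutadapt 1.16, STAR 2.7.9a, featureCounts 1.6.3 and GRCm39. The annotation release and the strand setting are not given in the sources used here, and reads shared by overlapping genes could change a level. Groups came from the sample labels, doses from the paper's methods. The 10 genes and all lists were chosen with earlier results of these data known. Some marker genes are not reported here.

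Genes with at least 10 counts in total (19839 of 57186) were tested in R 4.3.3 with edgeR 4.0.16: TMM scaling, 1 model of 15 libraries with group means, the quasi-likelihood test, and p adjusted by Benjamini-Hochberg at 0.05. Each standard error is the absolute log2 fold change divided by the root of F. Total counts of 29369934 to 42617812 per library set the counting error, and 3 counts per library were taken as the floor. On simulated counts for MSNP against the controls, 196 of 200 changed genes were recovered among 19839, with 15 false calls. The simulation gave all groups 1 spread per gene, held no length trend for Control replicate 3 and changed only genes above 1 CPM. Its figures therefore check the code and do not measure recovery in the real libraries. Symbols, positions and sequences came from GENCODE vM39 on GRCm39. Named paralogs and partners are those past the threshold against the controls, at most 5 per list by p, with others named where they were at the floor or where a family is completed. Likeness used log2 CPM with a prior count of 2. Alternatives were RLE scaling, other filters, a replicate block, the 6 libraries of a comparison, a lowess offset against log2 gene length (span 0.3), leaving out each library, DESeq2 1.42.0 and apeglm 1.24.0. The offset together with leaving out Control replicate 3 was chosen after seeing the data.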

Additional observations from a re-analysis of the deposited data

How the results depend on the processing

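For the 10 genes between treated groups, 1310 of the alternative values kept direction and side of the threshold, 18 gained and 31 lost a call, and 21 changed sign, none of them called in either fit. The sign changes were in 6 differences near 0. HMSNP minus SNP50 for Tmem154 went from -0.0047 to 0.00636 with RLE scaling, 0.00822 with filterByExpr, 0.00362 with no filter and 0.00416 with DESeq2, and from -0.0247 to 0.0362 without 1 library. With the length offset, and with it and without Control replicate 3, MSNP minus SNP50 for Kif3c was -0.0506 and -0.0525 against 0.0846, and HMSNP minus SNP100 for Nectin3 was -0.0012 and -0.000212 against 0.121. Without 1 library, SNP50 minus SNP100 ran from -0.106 to 0.00204 for Rcan1, -0.124 to 0.0427 for Zfp503 and -0.00757 to 0.252 for Asb10. No difference of the 10 genes from the controls changed sign. The counts of 9 genes in MSNP against SNP100 and against SNP50, of 10 in HMSNP against MSNP and of 0 in SNP50 against SNP100 were the same in all fits run, each leave-one-out fit included. In HMSNP against SNP50 the count was 7 and became 4 with no filter, and ran from 4 to 9 when 1 library was left out, 4 without SNP50 replicate 1 or 2 or HMSNP replicate 1 or 3. In HMSNP against SNP100 it was 4, was 7 with only the 6 libraries of the comparison, and ran from 3 to 6 without 1 library. The genes past the threshold against the controls, 10 in SNP100, SNP50 and MSNP and 6 in HMSNP, were 0, 0, 10 and 2 with only the 6 libraries of a comparison, and without 1 library 9 to 10 in SNP100, 10 in SNP50 and MSNP and 5 to 7 in HMSNP. Shares of all tested genes called in these fits are not given here, so the counts describe the fits and not the genes. The numbers of genes clear of the controls were 10 in SNP100, SNP50 and MSNP throughout, and 7 to 9 in HMSNP without 1 library.

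The median difference of the 10 genes from the controls ran from 0.47 to 0.59 in SNP100, 0.41 to 0.53 in SNP50, 1.65 to 1.76 in MSNP and 0.0854 to 0.235 in HMSNP when 1 library was left out. With the length offset the MSNP median was 1.63, with the offset and without Control replicate 3 it was 1.61, and the HMSNP median was then 0.0772. Calls among the 70 paralogs and partners moved more: leaving out 1 library gave 0 to 5 in SNP100, 0 to 18 in SNP50, 27 to 43 in MSNP and 2 to 24 in HMSNP. Without Control replicate 3 there were 5, 18 and 12 in SNP100, SNP50 and HMSNP, without Control replicate 2 there were 1 in SNP100 and 24 in HMSNP, and without HMSNP replicate 1, 2 or 3 there were 3, 2 and 3 in HMSNP. The length offset gave 2 in SNP100, 1 in SNP50 and 14 in HMSNP, and with Control replicate 3 also left out 6, 13 and 18. DESeq2 called 1, 1 and 12 in these groups, the filterByExpr filter 1 in SNP50, and fits of only the 6 libraries 19 in MSNP and 0 in HMSNP. Those fits estimate the spread from their own 6 libraries. Between treated groups they called 7 of the 10 genes in HMSNP against SNP100, beside 4, and 9 in HMSNP against SNP50, beside 7. The median SD of log2 CPM over 11535 genes was 0.256 in the controls and 0.0569 to 0.0818 in the treated groups. The cause of these shifts was not tested. Shares of all tested genes called in these fits are not given here, so the shifts are not read as a trait of the genes counted.

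With the replicate number as a block, the median differences were 0.53, 0.47, 1.70 and 0.16 in SNP100, SNP50, MSNP and HMSNP, the paralogs and partners called were 0, 0, 30 and 5, and no count of the 10 genes changed. The correlation of deviations from the group means ran from -0.36 to 0.47 over 30 same-numbered pairs of libraries (median -0.01). Over 60 pairs with other numbers it ran from -0.67 to 0.62 (median -0.00281). With 3 libraries per group, such values cannot show whether the numbers pair the samples. Depth limits Asb10 and the genes under 1 CPM most.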
